A study of Homo sapiens with 7 samples.

Results

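Binding of PPARα was examined near enzymes of liver glucose metabolism, 8 of the 19970 protein-coding genes on chromosomes 1 to 22 and X. They are ALDOA, TPI1, PKLR, PCK1, PCK2, GPI, FBP1 and PFKL, and a peak was assigned to a gene when its summit, the base of highest signal, lay in the gene's annotated span or within 50 kb of it. The 8 genes were selected on their pathway with the counts, positions and recurrence of these same peaks in view, so their values are a description, and no test was made. PPARα binding was mapped in HepG2, a line from a human hepatocellular carcinoma, by chromatin immunoprecipitation and sequencing with an antibody to PPARα. All cells carried a PPARα expression vector and received the PPARα agonist WY14643 (labelled both Wy13643 and Wy14643) at 10 µM for 2 h, starting after 48 h of transfection. In the PPARα group nothing was added to this. The PPARα+ERα cells also carried an estrogen receptor α vector and were given its agonist PPT (10 nM) for 45 min beforehand, and the PPARα+ERβ cells carried an estrogen receptor β vector and were given DPN (10 nM) likewise. There were 2 libraries per group, and since no label says that they came from separate cultures, their spread may be technical. The receptor vector and its agonist always came together, and they cannot be told apart. The no-antibody control was not analysed here, and peak lists hold no expression values with which to check the cell line.

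Glycolysis breaks glucose down to pyruvate in the cytosol, and gluconeogenesis rebuilds glucose from pyruvate and its precursors in the fasted liver. Most steps are shared and run both ways, while separate enzymes with opposite direction guard the irreversible steps. PPARα is the fatty-acid-sensing nuclear receptor of the fasted liver, and with its partner RXR it binds repeats of the hexamer AGGTCA. The estrogen receptors read an inverted repeat of the same core.

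Start-site windows, from 250 bases before to 50 after an annotated start, were taken from RefSeq (GRCh38.p14) for 7 of the 8 genes, 11 windows in all, PCK1 being the gene without one. None of the 11 overlapped a peak in any of the 6 libraries. The gap from window to nearest peak ran from 424 bases at ALDOA to 29656 bases at GPI. None of the 45 regions near the 8 genes touched a start-site window of any gene either. Over the genome only 0.485% of the 92292 regions did, so a count of 0 says nothing about these genes. The windows of 3 genes are shown, that of ALDOA because it was nearest to a peak and those of TPI1 and PCK2 because they hold the hexamer AGGTCA, on the opposite strand and in capitals (TGACCT).
ALDOA, chr16:30064029-30064328, plus strand: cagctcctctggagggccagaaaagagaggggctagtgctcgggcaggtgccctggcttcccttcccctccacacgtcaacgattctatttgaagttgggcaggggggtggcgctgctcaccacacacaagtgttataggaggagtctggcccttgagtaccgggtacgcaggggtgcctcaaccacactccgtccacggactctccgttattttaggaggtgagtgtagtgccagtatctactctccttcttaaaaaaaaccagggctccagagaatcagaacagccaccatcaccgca
TPI1, chr12:6867281-6867580, plus strand: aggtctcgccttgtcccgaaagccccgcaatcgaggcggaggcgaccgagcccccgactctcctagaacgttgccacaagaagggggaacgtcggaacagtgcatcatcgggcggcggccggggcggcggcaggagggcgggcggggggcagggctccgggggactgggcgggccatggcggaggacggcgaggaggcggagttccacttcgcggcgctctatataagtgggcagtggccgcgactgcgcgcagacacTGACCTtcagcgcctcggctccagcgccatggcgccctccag
PCK2, chr14:24094061-24094360, plus strand: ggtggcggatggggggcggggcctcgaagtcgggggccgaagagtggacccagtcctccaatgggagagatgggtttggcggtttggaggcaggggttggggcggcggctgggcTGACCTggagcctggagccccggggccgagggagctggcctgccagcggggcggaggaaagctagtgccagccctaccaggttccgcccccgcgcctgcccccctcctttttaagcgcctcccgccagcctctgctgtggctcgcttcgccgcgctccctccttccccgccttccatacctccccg
The hexamer was searched on both strands and was present in 2 of the 11 windows, and in 13.8% of all 35116 windows in the table. It starts at base 8 counted from the start site of TPI1, and at base -136, that is upstream, for PCK2. Neither the PPAR/RXR element, AGGTCA repeated after 1 base of any kind and so containing that hexamer, nor the estrogen response element, GGTCA and TGACC with 3 bases of any kind between them and so overlapping it, was found in the 11 windows. Of all windows 0.0228% and 0.0570% held them. The sequences under the peaks themselves were not used here.

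Peaks near the 8 genes numbered 61. The PPARα libraries held 4 and 16, the PPARα+ERα libraries 17 and 13, and the PPARα+ERβ libraries 5 and 6. PPARα+ERα library 1 was the only one with a peak near all 8 genes, and PPARα library 1 and PPARα+ERβ library 1 had peaks near 3 each. Over all protein-coding genes, the shares with a peak in these libraries were alike, at 68.8, 69.2 and 62.5% in the same order. Relative to the length of each list, these were 1.68 and 4.41 peaks per 10000 for PPARα, 6.94 and 4.72 for PPARα+ERα, and 2.86 and 2.58 for PPARα+ERβ. The group means were 3.04 ± 1.93, 5.83 ± 1.57 and 2.72 ± 0.204 per 10000 (SD, n = 2). Both PPARα+ERα libraries were above the other 4, with PPARα library 2 close below the nearer of them. Across all protein-coding genes, the mean number of peaks per gene was 1.54 and 2.59 for PPARα alone, 1.61 and 1.81 where ERα was added, and 1.22 and 1.74 where ERβ was. For the 8 genes the means were 0.50 and 2.00, 2.13 and 1.63, and 0.625 and 0.750, lower than those over all genes in 5 libraries and higher in PPARα+ERα library 1. The 8 genes are short, with a median span of 14658.5 bp compared with 24190 bp over all protein-coding genes. Every gene's window added 50 kb on either side, and the part of span in these counts was not tested.

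**Figure D1:**
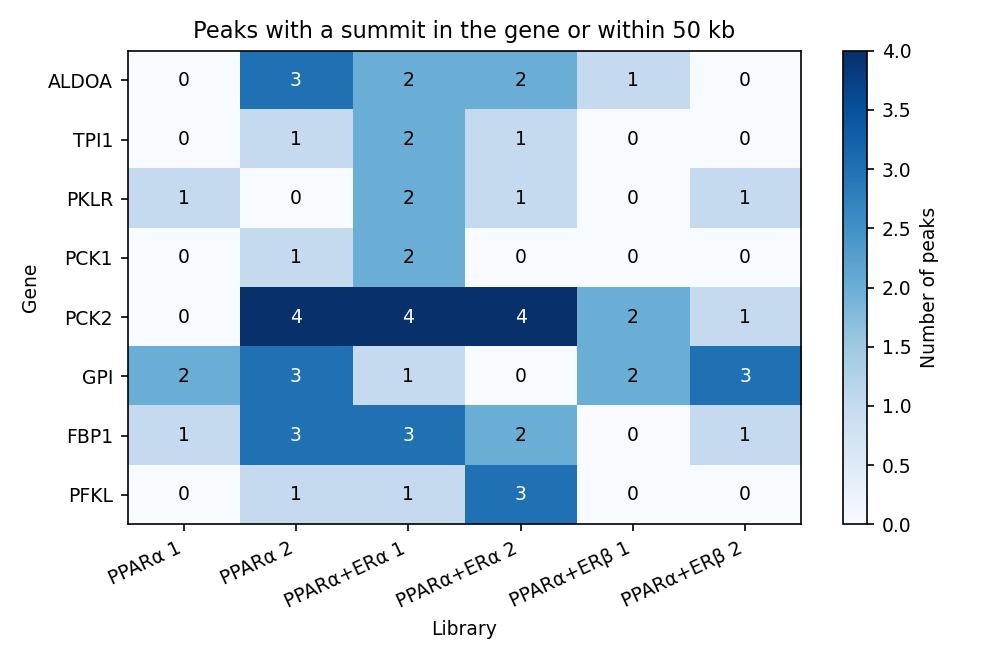
Number of peaks (colour and printed number) for each of the 8 genes (rows) in each of the 6 libraries (columns), counting summits in the gene or within 50 kb. PCK2 has the most, 15 in all, and PCK1 the fewest, 3.

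Near these genes the PPARα+ERα peaks lay apart from those of the other groups, and such sharing was rare over the genome too. Overlapping peaks were merged into 45 regions, 18 with a PPARα peak, 23 with a PPARα+ERα peak and 9 with a PPARα+ERβ peak. No region had both a PPARα and a PPARα+ERα peak, and none had both a PPARα+ERα and a PPARα+ERβ peak, while 5 had both a PPARα and a PPARα+ERβ peak. Of all 92292 regions, 2.22% had both a PPARα and a PPARα+ERα peak, 3.50% both a PPARα+ERα and a PPARα+ERβ peak, and 21.9% both a PPARα and a PPARα+ERβ peak. The 5 regions are 5 of 18 with PPARα and 5 of 9 with PPARα+ERβ, and the corresponding genome shares are 47.5 and 66.1%. Most regions, 32 of 45, came from a single library, 10 from 2 and 3 from 3 libraries, and none from more. Thus 28.9% recurred, compared with 39.9% of regions over the genome. Both libraries of a group had a peak in 7 PPARα+ERα regions, 2 PPARα regions and 2 PPARα+ERβ regions, which are called occupied from here on. As a share of regions found in either library, these were 7 of 23 for PPARα+ERα (0.304, and 0.205 over the genome), 2 of 18 for PPARα (0.111, and 0.414) and 2 of 9 for PPARα+ERβ (0.222, and 0.334). The PPARα libraries were thus the pair least alike near these genes, PPARα library 2 holding 11 regions found nowhere else.

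**Figure D2:**
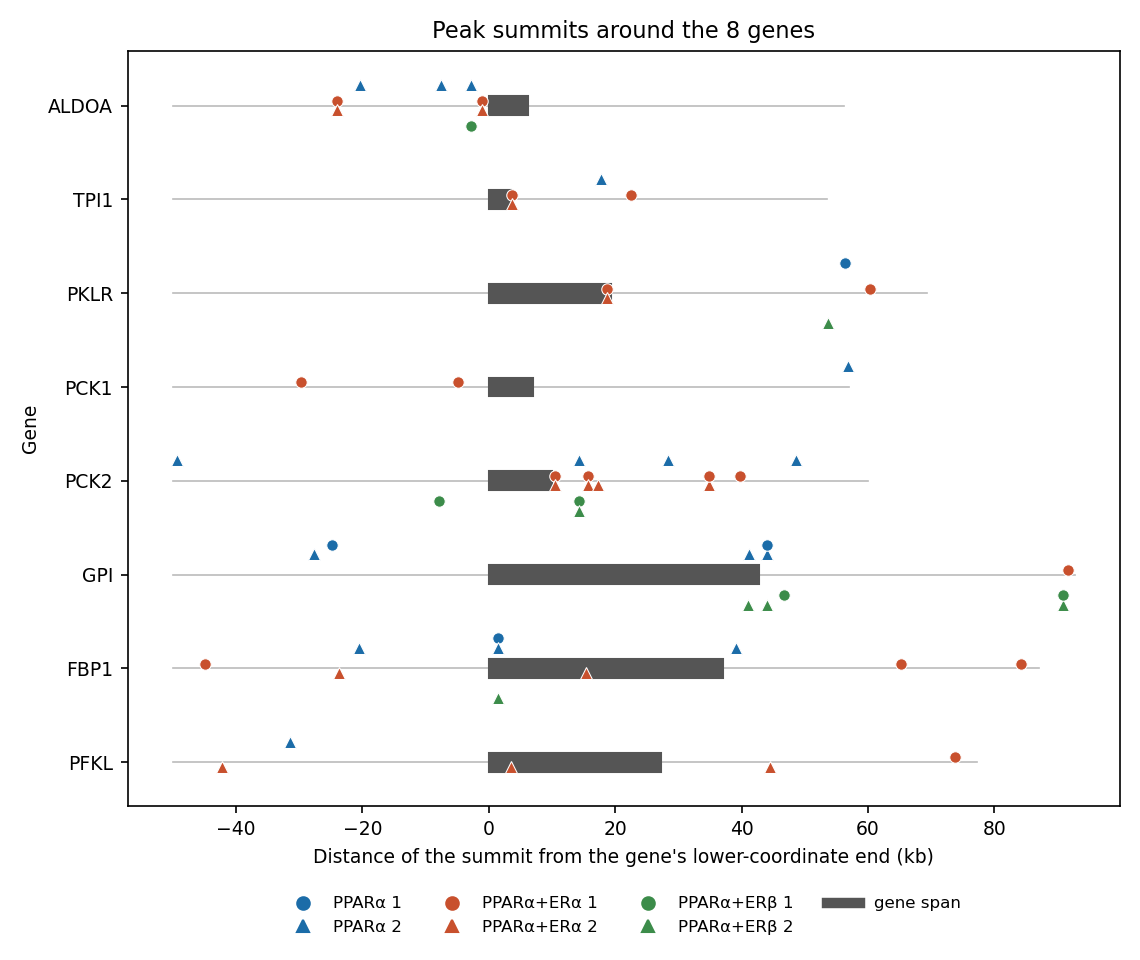
Positions of the 61 summits around each gene, in kb from the gene's lower-coordinate end along the chromosome (grey bar, gene span; thin line, the 50 kb on either side). Colours are groups, circles library 1 and triangles library 2, and PPARα+ERα marks stack in pairs close to the ends of ALDOA, TPI1, PKLR and PCK2.

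Occupied PPARα+ERα regions lay near 4 of the 8 genes, ALDOA, TPI1, PKLR and PCK2, and 38.0% of all protein-coding genes had one within 50 kb. Occupied PPARα regions lay near 2, GPI and FBP1, where 60.5% of all genes had one. Occupied PPARα+ERβ regions lay near 2, PCK2 and GPI, where 46.6% did. The same 4 genes had a PPARα+ERα region without any PPARα peak (36.7% of all genes), and the same GPI and FBP1 had a PPARα region without any PPARα+ERα peak (58.9%). Between PPARα+ERβ and PPARα, 1 gene, GPI, had a PPARα+ERβ region without a PPARα peak (10.8%), and 0 had the reverse (25.3%). Between the co-transfected groups, 4 genes had a PPARα+ERα region without a PPARα+ERβ peak (35.5%) and 2, PCK2 and GPI, had the reverse (43.0%). The first 4 of these 6 comparisons share the PPARα libraries. Within 3 kb of a gene end, 4 of the 8 genes had an occupied PPARα+ERα region (4.61% of all genes), 2 an occupied PPARα region (6.97%) and 0 an occupied PPARα+ERβ region (4.97%). Since the genes were proposed with these lists in view, nothing is read from those shares. In all, 6 of the 8 genes had an occupied region of some group (75.7% of all genes), and PCK1 and PFKL had none. Of peaks on a local background at most 3 times the lowest of their library, 2 PPARα+ERα, 1 PPARα and 1 PPARα+ERβ regions were occupied, and 2 genes in place of 4 had a PPARα+ERα region without a PPARα peak. PKLR, PCK2 and FBP1 then had no occupied region and ALDOA 1 in place of 2, and PKLR also had 0 with lists of equal length. A group judged by 1 library had more, PPARα 4 without library 2 and 16 without library 1, and PPARα+ERα 17 and 13.

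**Figure D3:**
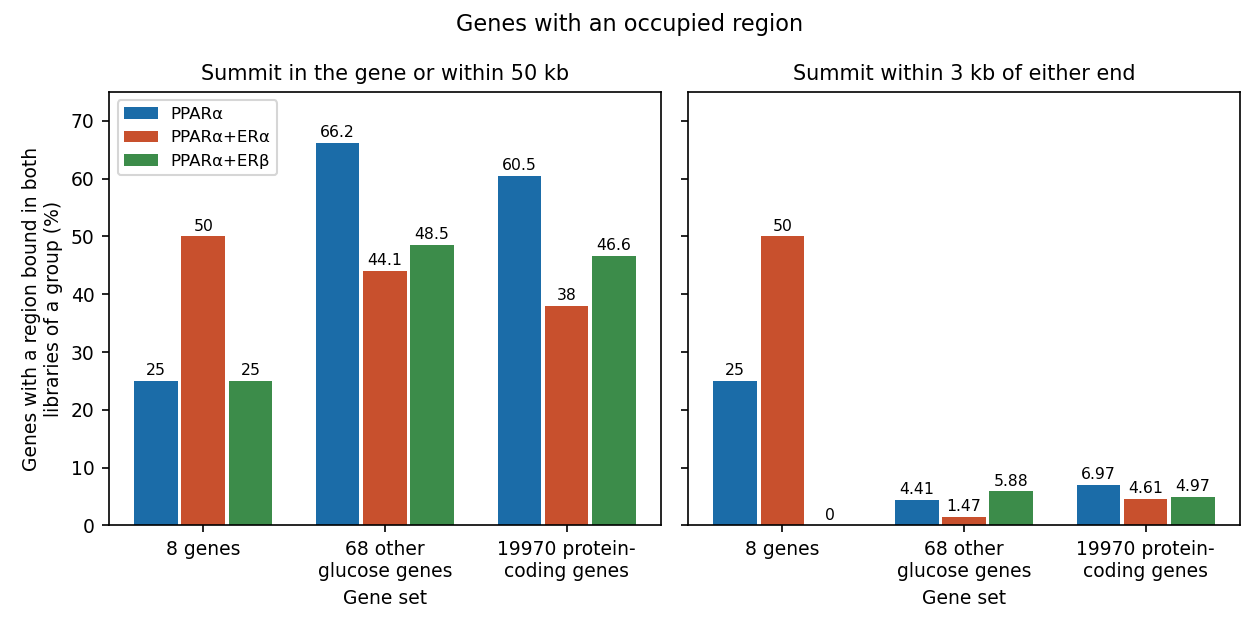
Share of genes (percent, bars from 0) with a region bound in both libraries of a group, for the 8 genes, 68 other genes of glucose metabolism and 19970 protein-coding genes, within 50 kb (left) and within 3 kb of a gene end (right). On the left the bars of the 8 genes stand for 2 with PPARα and 4 with PPARα+ERα, and all protein-coding genes at 60.5% and 38.0%.

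The enzymes of the upper, shared steps come first. GPI (chromosome 19, 34359718 to 34402413), which interconverts glucose 6-phosphate and fructose 6-phosphate, had 2 and 3 peaks in the libraries of PPARα alone, 1 and 0 where ERα was added, and 2 and 3 where ERβ was. The PPARα and PPARα+ERβ counts were thus equal and above both PPARα+ERα counts. Of the 8 genes it had the fewest PPARα+ERα peaks. A region past its 3′ end, between GPI and PDCD2L (34403552 to 34403980), was occupied with PPARα, at fold 6.80 and 8.21, and had a peak in PPARα+ERβ library 2, at 5.73. Fold here is the authors' deposited ratio of a summit to its local background, which ranks peaks within a list only. The summit was base 34403726 in all 3 libraries, from 10, 13 and 9 fragments on a local background 1.05, 1.04 and 1.05 times the lowest of each library. A region inside GPI, 1467 bp from that end (34400668 to 34401042), had a peak in PPARα library 2 (fold 6.54) and PPARα+ERβ library 2 (3.97), with summits 213 bp apart. Another, 48168 bp past the end and inside UBA2, a subunit of the SUMO-activating enzyme (34450421 to 34450757), was occupied with PPARα+ERβ alone (5.72 and 5.87).

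PFKL (chromosome 21, 44300053 to 44327373), the liver form of phosphofructokinase, which commits glucose to glycolysis, had 0 and 1 peaks for PPARα alone, 1 and 3 where ERα was added, and none where ERβ was. The PPARα and PPARα+ERα counts met at 1. None of its 5 regions recurred in another library. The only peak inside the gene was that of PPARα+ERα library 2, 3508 bp downstream of the start site (44303441 to 44303804; fold 4.25). The others lay 17161 to 46489 bp away, 1 of them from PPARα library 2 (44268281 to 44268703; fold 3.55), with 81 fragments on a local background 32.6 times the lowest. FBP1 (chromosome 9, 94603133 to 94640263), fructose-1,6-bisphosphatase, runs the opposite reaction in gluconeogenesis. Libraries of PPARα alone held 1 and 3 peaks near it, those with ERα added 3 and 2, and those with ERβ added 0 and 1. The PPARα counts met those with ERα added at 3 and those with ERβ added at 1.

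A region inside FBP1, 1514 bp from its 3′ end and 34871 bp from its start site (94604484 to 94604861), was its only recurrent one. It was occupied with PPARα, at fold 5.88 and 7.01, and had a peak in PPARα+ERβ library 2, at 4.64, all 3 with the summit at base 94604647. They held 21, 28 and 19 fragments, and the background there was 4.66, 4.63 and 4.67 times the lowest. The 5 PPARα+ERα peaks of FBP1 lay at 5 places, 1 of them inside the gene (94618476 to 94618815; fold 5.83, library 2). A lone peak of PPARα library 2 lay 2735 bp upstream of the start site (94642202 to 94642520; fold 3.62). Several of these places are shared with FBP2, the muscle form of the enzyme next door, whose own 50 kb window holds 6 of the 8 FBP1 regions.

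The triose steps carried PPARα+ERα peaks at the gene ends. ALDOA (chromosome 16, 30064279 to 30070420), an aldolase that splits fructose 1,6-bisphosphate, had 0 and 3 peaks for PPARα alone, 2 and 2 where ERα was added, and 1 and 0 where ERβ was. The PPARα libraries lay on both sides of the PPARα+ERα pair. Its closest region (30062535 to 30063605), upstream of the window shown above, held PPARα+ERα summits 1029 and 1099 bp before the first start site, at fold 6.99 and 8.89 and 13 fragments in both libraries. The library 1 peak was 1071 bp long, the widest of the 61. ALDOA lies within the longer transcription unit LOC112694756, which also holds this region. Another PPARα+ERα region (30040136 to 30040666; fold 5.85 and 6.05) lay 23933 bp upstream inside TLCD3B. Between these, 2801 bp upstream, a region at 30061225 to 30061563 had peaks in PPARα library 2 (3.02) and PPARα+ERβ library 1 (2.52), on local backgrounds 22.9 and 24.7 times the lowest. The highest fold of PPARα library 2 near these genes, 11.8, also lay in TLCD3B, with no peak in another library (30043648 to 30044026).

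TPI1 (chromosome 12, 6867420 to 6870948), triosephosphate isomerase, had 0 and 1 peaks for PPARα alone, 2 and 1 where ERα was added, and none where ERβ was. A region across its 3′ end (6870910 to 6871252), with its summit 123 bp past that end, was occupied with PPARα+ERα, at fold 6.47 and 9.16. Both summits were base 6871071, from 8 and 12 fragments on the lowest local background of each library (1.00 times). The region overlaps the adjoining gene SPSB2, a ubiquitin ligase adaptor. Its other regions were from single libraries, 14312 bp past the end in PPARα library 2 (6885034 to 6885369; fold 5.59) and 18962 bp past it in PPARα+ERα library 1 (6889748 to 6890142; fold 7.25). ENO2, the neuronal enolase, lies close enough that all 3 regions of TPI1 also fall in its window.

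The lower, one-way steps followed. PKLR (chromosome 1, 155289293 to 155308654), the pyruvate kinase of liver and red cells, had 1 and 0 peaks for PPARα alone, 2 and 1 where ERα was added, and 0 and 1 where ERβ was. All 3 groups thus shared the value 1. Its occupied PPARα+ERα region (155307657 to 155308070; fold 6.33 and 3.80) lay in the far upstream part of the annotated span, 6544 bp before PKLR's nearest start site. The nearest start site of any protein-coding gene, 884 bp away, was that of FDPS, an enzyme of cholesterol synthesis. Both summits were base 155307982, and they ranked differently in their lists, at percentiles 80.4 and 19.4 of −log10 q. The other 3 regions, in a single library each, were inside ASH1L, a histone methyltransferase. They came from 3 groups, at fold 4.12 in PPARα+ERβ library 2, 4.41 in PPARα library 1 and 6.49 in PPARα+ERα library 1, 34237 to 41004 bp from PKLR.

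PCK1 and PCK2 are the cytosolic and mitochondrial phosphoenolpyruvate carboxykinases, which take oxaloacetate to phosphoenolpyruvate in gluconeogenesis, and PCK1 is a classic fasting-induced gene. PCK1 (chromosome 20, 57561110 to 57568121) had 0 and 1 peaks for PPARα alone, 2 and 0 where ERα was added, and none where ERβ was. Most libraries thus had none, and no position recurred. Its nearest peak, 4829 bp before the lower end of the span (57556079 to 57556395; fold 5.42), was in PPARα+ERα library 1 alone. Its PPARα peak (57617855 to 57618209; fold 2.46), inside ZBP1, lay at 49873 bp, just within the 50 kb limit, and the next peak outside, in PPARα library 1, was at 52870 bp (fold 8.56).

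PCK2 (chromosome 14, 24094171 to 24104125) had the most peaks, 0 and 4 for PPARα alone, 4 and 4 where ERα was added, and 2 and 1 where ERβ was. The PPARα libraries were the least alike there, and both PPARα+ERα libraries were at 4. A region (24109701 to 24110134), 5766 bp past the gene and inside the annotated span of NRL, a retinal transcription factor, had fold 11.65 and 12.2 with PPARα+ERα, from 34 and 31 fragments. These peaks were at percentiles 99.7 and 99.5 of −log10 q in their lists, above the other peaks of the same library near the 8 genes. PPARα+ERα library 2 had a further peak 7268 bp past the gene (24111249 to 24111552) at fold 12.7. PPARα+ERα regions of lower fold lay 539 bp past the gene (24104475 to 24104854; fold 4.99 and 4.75) and 24946 bp past it near FITM1, a lipid droplet protein (24128971 to 24129295; 6.26 and 8.59). Among them, a region at 24108101 to 24108513 had peaks with PPARα+ERβ (2.97 and 2.74) and in PPARα library 2 (3.40), with summits within 2 bp and local backgrounds 24.7, 24.4 and 24.1 times the lowest. The PPARα+ERα and PPARα+ERβ regions there were thus interleaved within a few kilobases without overlap. PPARα library 2 had 3 further peaks, 49360 bp before the gene in DHRS4L1 (24044621 to 24044962; fold 2.70, 48 fragments on 25.4 times the lowest), in DCAF11 (24122492 to 24122820; fold 4.06) and by EMC9 and PSME2 (24142703 to 24143039; fold 4.402). The last 2 held 126 and 115 fragments on local backgrounds 44.7 and 37.4 times the lowest.

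**Figure D4:**
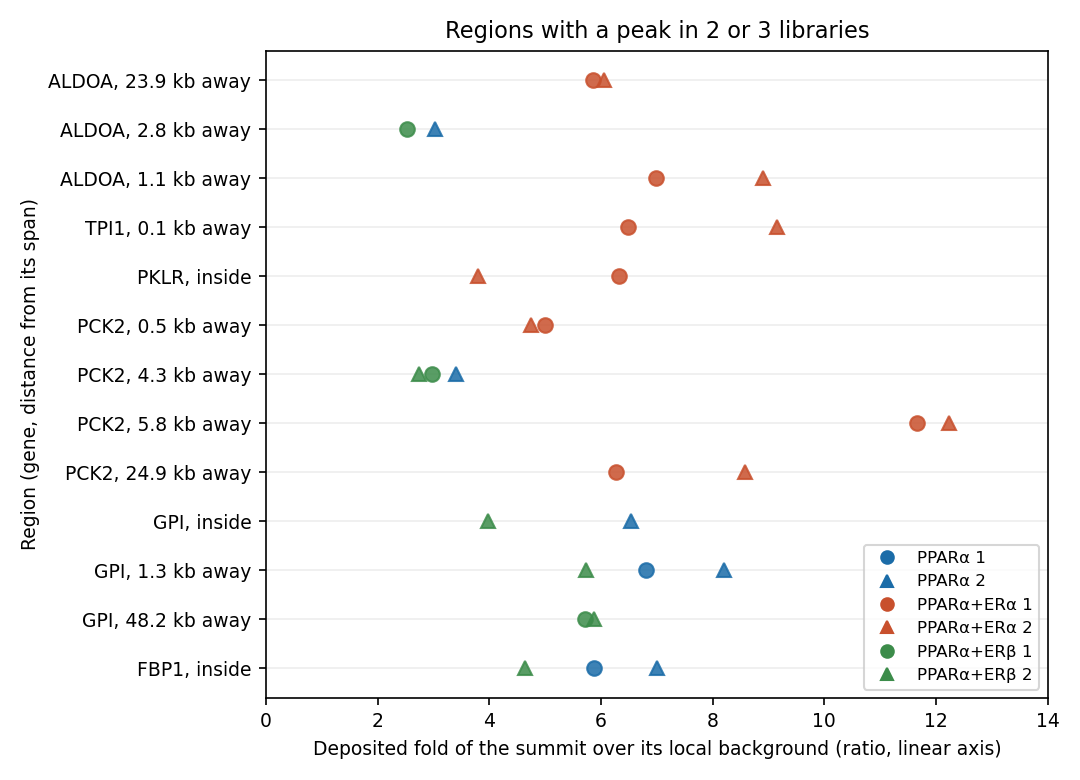
Deposited fold (horizontal axis, ratio) of every peak in the 13 regions found in 2 or 3 libraries, named by gene and distance from its span. Within each PPARα+ERα library the PCK2 region 5.8 kb away stands highest, at 11.65 and 12.2, and no line mixes PPARα+ERα marks with those of another group.

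Near the 8 genes, PPARα library 2 held peaks of more fragments, on a higher local background, than the other libraries in the median. The 16 peaks of PPARα library 2 had a median of 48.5 fragments at the summit (6 to 126) and a local background 21.1 times the lowest (1.00 to 53.1). The 4 peaks of PPARα library 1 had 10 fragments (6 to 21) and 2.54 times (1.00 to 4.66), close to the PPARα+ERα libraries, whose medians were 12 and 13 fragments and 2.57 times in both. The PPARα+ERβ libraries had medians of 13 and 17 fragments and 4.95 and 3.55 times. Near the 8 genes the groups therefore did not separate, and the ranges of all 6 libraries overlapped. Of the 20 PPARα, 30 PPARα+ERα and 11 PPARα+ERβ peaks, 6, 16 and 5 stood on at most 3 times the lowest background. In whole lists the share of such peaks was 16.0 and 12.8% for PPARα, 74.25 and 76.88% for PPARα+ERα, and 21.7 and 24.8% for PPARα+ERβ. The median number of fragments in whole lists was 35 and 50 for PPARα, 9 and 10 for PPARα+ERα, and 27 and 29 for PPARα+ERβ. By this measure the peaks of PPARα library 2 near the 8 genes were close to its list. Those of PPARα library 1 and of both PPARα+ERβ libraries were below theirs, and those of both PPARα+ERα libraries a little above. The median local background of whole lists was 13.5 and 15.7 times the lowest for the PPARα libraries, 1.64 and 1.57 for PPARα+ERα, and 9.34 and 8.52 for PPARα+ERβ. The PPARα+ERα libraries also had the lowest basal coverage, 1 fragment per 779.7 and 725 bp if the narrowest peak is taken as the fragment length, the others lying between 449.8 and 537 bp. The part of depth and background in the differences between groups was not tested. Among the 13 recurrent regions, the local backgrounds of the libraries lay within 5% of each other in 9, across groups at GPI, FBP1 and PCK2. Over the genome, 94.1% of the 13676 sites with the same summit base in different groups showed such a match.

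**Figure D5:**
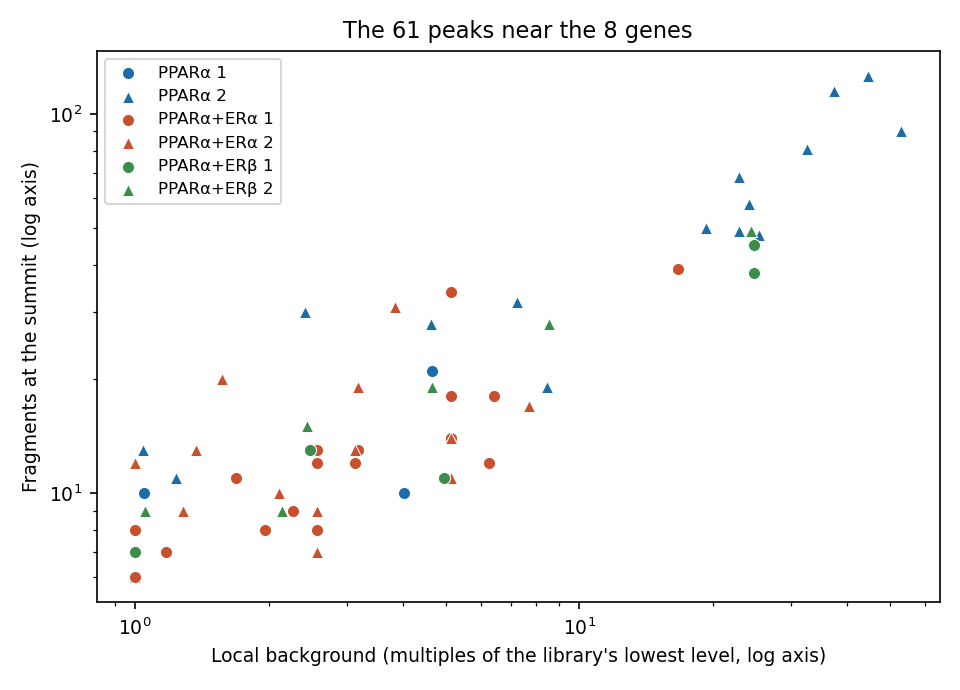
Fragments at the summit (vertical, log axis) against local background in multiples of the library's lowest (horizontal, log axis) for the 61 peaks, coloured by group. PPARα library 2 reaches 126 fragments at a background of 44.7 times, and the 4 peaks of PPARα library 1 lie among the PPARα+ERα peaks, at 6 to 21 fragments.

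Most regions lay in or near other genes. Of the 45, 5 were inside 1 of the 8 genes, 25 inside another protein-coding gene and 15 inside no protein-coding gene. The nearest start site of a protein-coding gene was 673 bp away at the closest and 7934 bp in the median, and 2 regions came within 1 kb of one. Within 3 kb of an end of 1 of the 8 genes lay 9 regions, near ALDOA, TPI1, PKLR, PCK2, GPI and FBP1. Genome shares are not given for these positions, and nothing particular to these genes is read from them. The same summit base was seen in all libraries in 6 of the 13 recurrent regions, and in 29.5% of 36837 recurrent regions over the genome.

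Binding near the rest of the pathway was counted over 68 further genes, of which 45 had an occupied PPARα region within 50 kb, 30 a PPARα+ERα region and 33 a PPARα+ERβ region, that is 66.2, 44.1 and 48.5%. The shares over all protein-coding genes given above, 60.5, 38.0 and 46.6%, were lower by a few points each. The 68 genes are longer, with a median span of 31468.5 bp compared with 24190 bp, and the part of span was not tested. Within 3 kb of a gene end the counts were 3, 1 and 4 of 68, that is 4.41, 1.47 and 5.88%. Over all protein-coding genes these shares were 6.97, 4.61 and 4.97%. MLXIP, a glucose-responsive transcription factor, accounted for 1 in each group, with a region 264 bp from its start site (chromosome 12, 122078184 to 122078621) called in all 6 libraries. Its fold was 5.18 and 7.86 with PPARα, 5.71 and 4.96 where ERα was added, and 8.78 and 8.45 where ERβ was. The local background there was 14.5 to 15.4 times the lowest of each library. PFKFB3, which makes the phosphofructokinase activator fructose 2,6-bisphosphate, had a region 2407 bp from an end (chromosome 10, 6142197 to 6142695), at fold 9.45 and 19.1 with PPARα and 7.57 and 7.61 with PPARα+ERβ and with no PPARα+ERα peak. DLAT, a core subunit of pyruvate dehydrogenase, had one (chromosome 11, 112066636 to 112067097) at 7.56 and 14.9 with PPARα and 5.05 in PPARα+ERβ library 1. ENO1, the main enolase, had one inside the gene (chromosome 1, 8861887 to 8862290) with PPARα+ERβ (7.57 and 5.27) and in PPARα library 1 (4.41). GOT2, the mitochondrial aspartate aminotransferase, had one 925 bp from an end (chromosome 16, 58705921 to 58706294) with PPARα+ERβ alone (3.62 and 3.39), on a local background 24.7 and 24.4 times the lowest. Unlike the MLXIP region, the regions of PFKFB3, DLAT, ENO1 and GOT2 had no PPARα+ERα peak. Those of PFKFB3, DLAT and ENO1 stood on the lowest local background (1.0 times).

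By list, occupied PPARα regions lay within 50 kb of 11 of 19 glycolysis genes, among them LDHA, HK2 and PKM, and of 9 of 10 gluconeogenesis genes, among them G6PC1, the glucose-6-phosphatase, and PC, pyruvate carboxylase. The PPARα+ERα counts were 5 of 19 and 3 of 10, and the PPARα+ERβ counts 9 of 19 and 5 of 10. For transcription factors of glucose metabolism the counts were 6, 8 and 4 of 9, with FOXO1 and MLXIPL in the PPARα+ERα count and outside the other counts. For glycogen enzymes they were 5, 6 and 3 of 8, for pyruvate dehydrogenase and its partners 6, 6 and 6 of 11 and for glucose and lactate carriers 5, 1 and 4 of 6. Differences between these lists were not tested.

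Among the 68 genes, those with the same occupying groups and the smallest summed difference in peak number over the 6 libraries were named for each of the 8 enzymes. For ALDOA and TPI1 this was GYS1, muscle glycogen synthase, with a difference of 2 peaks for both. PYGB, brain glycogen phosphorylase, was among the nearest to PKLR, at 3 peaks, and MPC1, a subunit of the mitochondrial pyruvate carrier, was the only one with the groups of PCK2, at 5. For GPI they were GCKR, HK3 and SLC16A1, at 4, and for FBP1 PFKFB4, at 5. For PCK1, with no occupied region, PFKFB1 was nearest, at 2, and for PFKL GAPDH, GYS2 and MDH2, at 3. Of all protein-coding genes, 8.37% had the same occupying groups as ALDOA, TPI1 and PKLR, and 24.3% had none, as PCK1 and PFKL. The groups of GPI were those of 20.5%, the group of FBP1 that of 13.2% and the groups of PCK2 those of 2.81%.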

How the data were processed

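Chromatin immunoprecipitation peak lists of 6 libraries of HepG2 cells were used, 1 list per library. The submitters' processing notes name MACS2 2.2.7.1 and Bowtie 1.0.1 among other tools and the build hg38 (GRCh38.p13), and the control used is not given in the sources used here. The deposited fold is a ratio to the local background, the deposited −log10 p-value and −log10 q-value belong to each summit, and the deposited score is the −log10 q multiplied by 10. The 10th column is the summit's offset. Only peaks on chromosomes 1 to 22 and X were kept, 17457 to 36302 per list. Fragments and local background were solved from fold and p (100% of peaks matched within 0.001). Precision is limited by these fragments, since sequencing totals were not used here. Peaks overlapping by 1 bp formed regions. Gene spans and start-site windows came from RefSeq GRCh38.p14, whose primary chromosomes share coordinates with hg38. Its tables give no exons, so exon or intron was not assigned. The genes and the 76 listed symbols, all matched, were chosen with earlier results of these data known. Other genes were named by a rule, as those with an occupied region within 3 kb of an end (up to 10) and the 3 of most similar counts, of which 1 is not reported here. Alternatives were a 25 kb window, −log10 q of at least 3, summits within 200 bp, lists of equal length, local background up to 3 times the lowest, and leaving out each library. SciPy 1.17.1, pandas 2.3.3, Matplotlib 3.10.9 and NumPy 2.4.6 were run under Python 3.11.15, and the steps were tested on simulated data. An exact permutation test of 2 libraries against 2 cannot go below p = 0.333.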

Additional observations from a re-analysis of the deposited data

How the results depend on the processing

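Occupied regions near the 8 genes numbered 2 in the PPARα group, 7 in the PPARα+ERα group and 2 in the PPARα+ERβ group. With a stricter −log10 q of at least 3, or with regions built from summits within 200 bp, none of these counts, nor any of the 6 counts of genes with a region in one group and not another, moved by over 1.5 times. With peaks on a local background up to 3 times the lowest, the occupied regions were 1, 2 and 1, the genes with a PPARα+ERα region without a PPARα peak were 2, those with the reverse 1, those with a PPARα+ERα region without a PPARα+ERβ peak 2 and those with the reverse 1. That filter keeps fewer peaks. A window of 25 kb gave 1 occupied PPARα+ERβ region, 0 genes with a PPARα+ERβ region without a PPARα peak and 1 with one without a PPARα+ERα peak. Lists of equal length gave 1 occupied PPARα region, 1 gene with a PPARα region without a PPARα+ERα peak and 2 with a PPARα+ERβ region without a PPARα peak.

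Leaving out each library in turn lets a group rest on 1 list, so counts rise by construction. Occupied regions ranged from 2 to 16 for PPARα (16 without its library 1, 4 without library 2), from 7 to 17 for PPARα+ERα (13 and 17) and from 2 to 6 for PPARα+ERβ (6 and 5). Genes with a PPARα+ERα region ranged from 4 to 8 without a PPARα peak and from 4 to 8 without a PPARα+ERβ peak, both highest without PPARα+ERα library 2. Genes with a PPARα region ranged from 2 to 7 without a PPARα+ERα peak and from 0 to 7 without a PPARα+ERβ peak, both highest without PPARα library 1. Genes with a PPARα+ERβ region ranged from 1 to 2 without a PPARα peak and from 2 to 4 without a PPARα+ERα peak, the latter highest without PPARα+ERβ library 1. No paired analysis was possible because the labels carry no replicate numbers shared between groups, and libraries 1 and 2 of each group were numbered in accession order only to name them. At 8 to 13 fragments per summit, as at the regions with summits just past TPI1 and GPI, a peak missing from another list is not shown to be absent. The GPI region was missing from both PPARα+ERα lists and from PPARα+ERβ library 1. The TPI1 region was missing from all PPARα and PPARα+ERβ lists. Basal coverage was lowest in the PPARα+ERα lists, and its part in either absence was not tested.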
